A study of Mus musculus with 9 samples.

Results

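The 10 reactive astrocyte genes described here were Gfap, Vim, Nes, Osmr, Stat3, Lcn2, Serpina3n, Cd44, Steap4 and S100a10. They were taken by name as genes known to rise in astrocytes that respond to injury, and each symbol matched 1 Ensembl identifier of the deposited table. The table held 52550 genes, of which 18699 passed the filter on low counts and were tested, all 10 reactive astrocyte genes among them. Messenger RNA of the mouse spinal cord was sequenced 7 days after surgery in 9 libraries, 3 in each group, each taken as a separate mouse. According to the methods, the mice were adult female C57BL/6N. The Sham group had its vertebral plates removed without a lesion. The SCI group received a thoracic contusion and intraperitoneal dimethyl sulfoxide (DMSO). The mice of the SCI+FIPI group had the same lesion and were given FIPI, an inhibitor of phospholipase D (PLD) dissolved in DMSO, by the same route, so the Sham group differed from the others in both the lesion and the injections. The tissue was a segment of whole cord around the injury site, which holds astrocytes together with neurons, oligodendrocytes, vessels, meninges and the blood cells that enter after injury. The total count per mouse lay between 20806000 and 24582377.

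Astrocytes around a lesion of the central nervous system enlarge, divide in part and form a border around the damaged tissue, a state known as reactive astrogliosis. Cytokines of the interleukin-6 family, among them oncostatin M, bind receptors that contain gp130, and Janus kinases then phosphorylate STAT3, which enters the nucleus and binds DNA. In mouse spinal cord this pathway is known to be needed for the astrocyte border, and intermediate filament proteins such as GFAP, vimentin and nestin are its common histological markers. None of these genes is used by astrocytes alone: Vim and Cd44 are also made by fibroblasts and macrophages, Nes by vessel cells, and Lcn2 by neutrophils.

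Because STAT3 belongs to the set, the promoters were searched for the letters to which STAT proteins bind, and the windows that hold them are shown. Promoters came from RefSeq on GRCm38.p6, covered 250 bases before and 50 after the transcription start, and were found for 9 of the 10 genes. Both strands were searched. The letters TTCNNNGAA were present for 2 of the 9 genes, against 9.55% of the 27025 genes in the table, and stand in capitals in the following windows of 30 bases, with Socs3, a known STAT3 target and inhibitor, for comparison. The Gfap site began 2 bases before the start and ran across it (chr11:102897183-102897212, minus strand), the Steap4 site began 116 bases before it (chr5:7960346-7960375, plus strand) and the Socs3 site 154 bases before it (chr11:117969501-117969530, minus strand).
Gfap: atgggggtgcTTCCAGGAAgtcaggggcag
Steap4: ggttgaactcTTCCCGGAAactttgcttca
Socs3: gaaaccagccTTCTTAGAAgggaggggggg

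Sites of AP-1 and NF-kB, factors that act downstream of inflammatory cytokines, were searched in the same way. The AP-1 letters TGANTCA were present for 1 of the 9 genes (Osmr, chr15:6874292-6874321, minus strand), against 8.97% of all genes. The NF-kB motif was present for 2 of the 9 genes, against 6.55% of all genes, and lay in Vim (chr2:13574160-13574189, plus strand, the nearer of its pair of sites) and Steap4 (chr5:7960236-7960265, plus strand). The printed sites did not overlap one another. A match describes letters in these windows and not binding.
Osmr: tgccccgtagtTGATTCAtagctggggcgc
Vim: aaggctcgagGGGAGCTCCCtcccccaccc
Steap4: caaaggttccGGAAAACCCCttttataccc

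To examine which of the genes differed after contusion, SCI was compared with Sham with the quasi-likelihood test of edgeR, and p-values were adjusted by Benjamini-Hochberg over all genes tested. A gene was called where the adjusted p-value was under 0.05 and the log2 fold change reached 0.5 in either direction. Of the 10 genes, 9 were called higher in SCI and none lower, while 24.4% of all genes tested were called higher and 22.5% lower. The log2 fold changes of the 10 genes lay between 0.76 (Stat3) and 2.54 (Vim), with a median of 1.61 beside a median of -0.00 over all genes. Lcn2 was the gene that was not called. In all 10 genes the 3 SCI mice lay above the 3 Sham mice, which also kept apart in either direction for 70.5% of all genes tested. Because the whole cord segment was measured, more cells that express a gene and more RNA in each cell cannot be told apart.

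**Figure D1:**
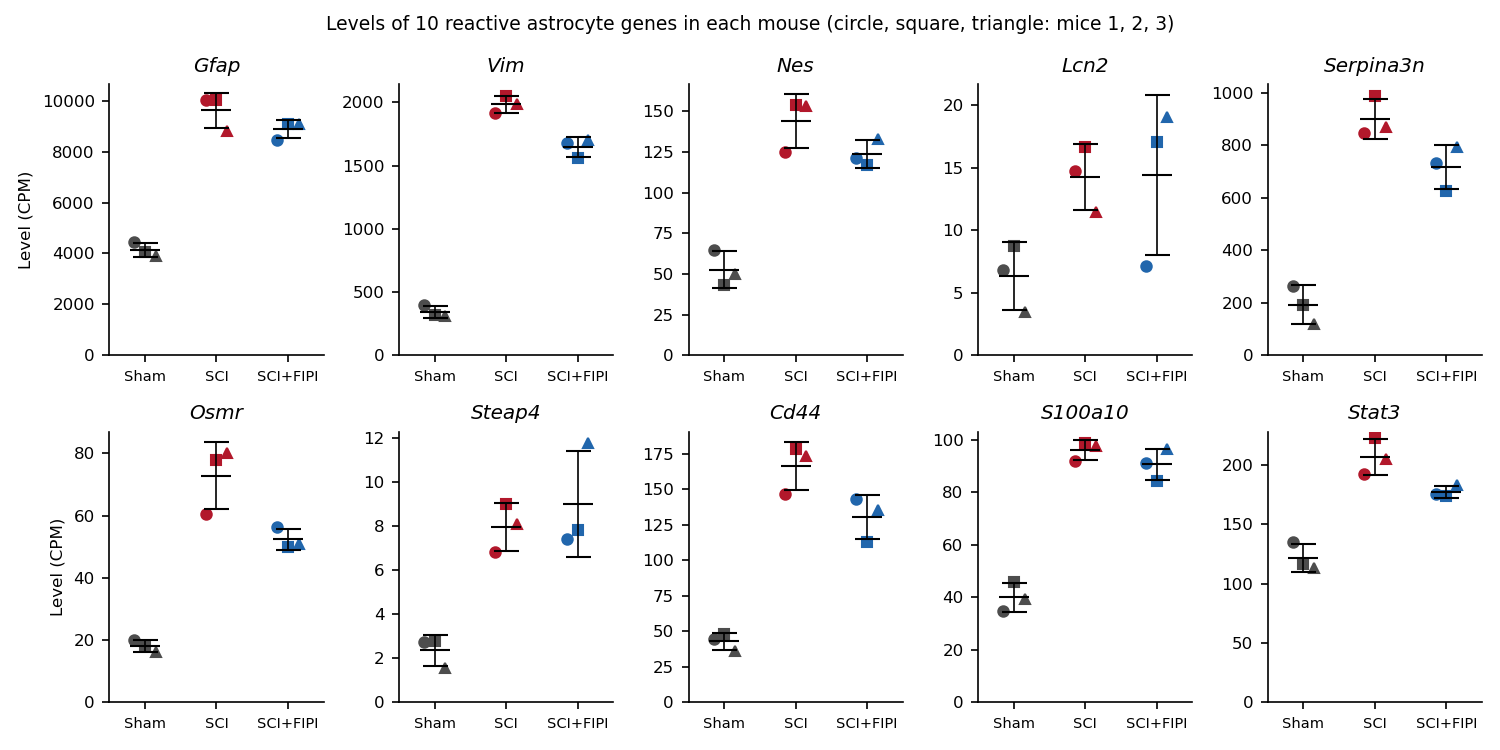
Level of each of the 10 genes in CPM (counts scaled to the size of each library, linear axis from 0) in every mouse, with the bars giving the mean and SD of 3 mice per group. SCI and Sham mice did not overlap in any panel, while SCI+FIPI and SCI mice overlapped in 5 of the 10 panels, and Lcn2 and Steap4 spread most widely in SCI+FIPI.

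Gfap encodes the main intermediate filament protein of astrocytes. Its level was 4453, 4040.3 and 3913 CPM, a count scaled to the size of the library, in Sham mice 1 to 3, 10019.5, 10023 and 8818 CPM in the SCI mice, and 8476, 9080.2 and 9086 CPM in the SCI+FIPI mice. Every injured mouse stood well above every Sham mouse, and the SCI and SCI+FIPI ranges overlapped. Gfap was 2.33-fold higher in SCI than in Sham (log2 fold change 1.22, SE 0.0805, edgeR adjusted p = 6.83e-09). Vim encodes vimentin, the filament protein of immature astrocytes and of mesenchymal cells. Vim stood at 399, 318 and 308 CPM in Sham, 1916, 2053 and 1986 CPM in SCI, and 1678, 1560 and 1702 CPM in SCI+FIPI. The 3 groups did not overlap, and SCI was the highest. The rise of Vim from Sham to SCI was 5.81-fold (log2 fold change 2.54, SE 0.0950, edgeR adjusted p = 5.19e-11), the largest among the 10 genes. Nes encodes nestin, a filament protein of neural progenitors and vessel cells. Nes measured 65.0, 42.9 and 49.8 CPM in Sham, 125, 154 and 153 CPM in SCI, and 121, 117 and 133 CPM in SCI+FIPI. SCI mouse 1 fell within the SCI+FIPI range, while the other SCI mice stood above it. Nes was 2.74-fold higher in SCI than in Sham (log2 fold change 1.46, SE 0.148, edgeR adjusted p = 2.06e-05). A further 8 genes of intermediate filaments and their linkers were listed, of which 6 were tested. Of these, 4 were called higher in SCI and none lower, among them Des, the muscle and pericyte filament desmin (log2 fold change 1.99), and Lmna, which encodes lamins of the nuclear envelope (1.59). The shares over all genes tested were 24.4% higher and 22.5% lower.

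Osmr encodes the oncostatin M receptor chain that pairs with gp130. Osmr stood at 20.2, 18.2 and 16.3 CPM in Sham, 60.5, 77.9 and 80.0 CPM in SCI, and 56.3, 49.9 and 50.8 CPM in SCI+FIPI. All 3 groups were apart, although SCI mouse 1 came near SCI+FIPI mouse 1. Osmr was 4.01-fold higher in SCI than in Sham (log2 fold change 2.00, SE 0.113, edgeR adjusted p = 9.33e-09). Stat3, the transcription factor downstream of that receptor, measured 135, 117 and 113 CPM in Sham, 192, 222 and 205 CPM in SCI, and 176, 173 and 183 CPM in SCI+FIPI. The groups did not overlap, and the difference of Stat3 RNA was the smallest of the 10, 1.70-fold (log2 fold change 0.76, SE 0.0736, edgeR adjusted p = 3.26e-07). The activity of STAT3 depends on its phosphorylation, which RNA does not measure. Exons of Stat3 share 72 bases with Stat5a on the opposite strand, and 0.384% of the 50-base stretches of Stat3 occur in another gene.

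The other genes of this pathway were taken from lists. In SCI against Sham, 24.4% of all genes tested were called higher and 22.5% lower. Of the 8 listed ligands, Il6 and Cntf did not pass the filter on low counts. Of the 6 tested, 5 were called higher in SCI and none lower, including Osm, the ligand of Osmr (log2 fold change 3.23, from a mean of 0.475 to 4.48 CPM), and Lif (1.69). Of 5 receptor chains, 3 were called higher, with Il6ra at 1.80 and the shared chain gp130, encoded by Il6st, at 0.61, while Lifr stood at -0.48 and was not called. Of 9 Janus kinases and other STATs tested, 4 were called higher and none lower. Stat6 (2.24), the mediator of interleukin-4 signals, and Jak3 (1.56), a kinase of lymphoid and myeloid cells, were among them, and Jak1 stood at -0.01. Of 9 inhibitors, 5 were called higher and none lower, with Socs3 at 2.71 (7.12 to 46.5 CPM on average) and Ptpn1, a phosphatase, at 1.53.

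Lcn2 encodes lipocalin-2, a secreted carrier of bacterial siderophores that also comes from neutrophils. Lcn2 measured 6.85, 8.77 and 3.43 CPM in Sham, 14.7, 16.7 and 11.5 CPM in SCI, and 7.11, 17.1 and 19.0 CPM in SCI+FIPI. Every SCI mouse was above every Sham mouse, but SCI+FIPI mouse 1 lay inside the Sham range. The difference between SCI and Sham was 2.26-fold (log2 fold change 1.17, SE 0.462, edgeR adjusted p = 0.0601), with a 95% interval of 0.07 to 2.28 that was wider than that of the other 9 genes, and it was not called. The call depended on the fit, since DESeq2 gave an adjusted p of 0.0279 and edgeR without SCI+FIPI mouse 1, which belongs to neither group, an adjusted p of 0.0128. Serpina3n encodes a secreted inhibitor of serine proteases. Serpina3n stood at 265, 193 and 118 CPM in Sham, 847, 989 and 870 CPM in SCI, and 734, 626 and 792 CPM in SCI+FIPI. The 3 groups did not overlap, and the Sham mice spread by a coefficient of variation of 38.3%. Serpina3n was 4.70-fold higher in SCI than in Sham (log2 fold change 2.23, SE 0.286, edgeR adjusted p = 0.000356). Serpina3n shares 6.90% of its 50-base stretches with other Serpina3 genes, so part of its count is uncertain, to an extent that was not tested. Its relative Serpina3g was also called higher (log2 fold change 2.51), at 11.4 CPM in SCI.

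Cd44 encodes a membrane receptor for hyaluronan and osteopontin that leukocytes also carry. Cd44 measured 44.7, 48.0 and 36.4 CPM in Sham, 147, 178 and 174 CPM in SCI, and 143, 113 and 135 CPM in SCI+FIPI. All 3 groups were apart, with SCI mouse 1 close to SCI+FIPI mouse 1. Cd44 was 3.87-fold higher in SCI than in Sham (log2 fold change 1.95, SE 0.124, edgeR adjusted p = 1.63e-07). Steap4 encodes a metalloreductase of membranes. Steap4 measured 2.73, 2.81 and 1.55 CPM in Sham, 6.84, 9.01 and 8.10 CPM in SCI, and 7.42, 7.84 and 11.8 CPM in SCI+FIPI. Injured mice of both groups lay above the Sham mice, and SCI+FIPI mouse 3 was the highest. Steap4 was 3.39-fold higher in SCI than in Sham (log2 fold change 1.76, SE 0.240, edgeR adjusted p = 2.36e-05). S100a10 encodes p11, a membrane-linked protein that binds annexin A2. S100a10 stood at 34.7, 46.0 and 39.3 CPM in Sham, 92.0, 98.8 and 97.7 CPM in SCI, and 91.1, 84.3 and 96.4 CPM in SCI+FIPI. The injured groups overlapped each other and not the Sham group. S100a10 was 2.40-fold higher in SCI than in Sham (log2 fold change 1.26, SE 0.0878, edgeR adjusted p = 1.78e-08).

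Of 10 listed partners and ligands of these proteins, 5 were called higher in SCI and 2 lower. The shares of all genes tested were 24.4% higher and 22.5% lower. Spp1, which encodes osteopontin, the ligand of CD44, differed by 5.30 on the log2 scale, from a mean of 127 CPM in Sham to 5008 CPM in SCI, and Anxa2, the annexin partner of S100a10, by 2.14. Has2 and Has3, enzymes that make hyaluronan, went opposite ways, at 2.19 and -1.23, and both were called. Slc22a17, described as a receptor of lipocalin-2, was called lower (-0.80). Of 16 relatives tested among 19 listed, 10 were called higher and 1 lower. S100a11 (2.87), S100a6 (1.70) and Steap3 (2.50) were called higher and Steap2 (-1.25) lower, whereas the neutrophil genes S100a8 (0.26) and S100a9 (-0.05) were not called.

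Levels of the genes were compared with each other only per length, as FPKM, which scales the count by library size and by exonic length. That length joined all annotated exons of a gene, and how the order of the genes depends on this choice was not tested. In Sham the order ran from Gfap (988 FPKM ± 67.9, SD, n = 3) through Serpina3n (93.8 ± 36.0), Vim (72.6 ± 10.5), S100a10 (33.3 ± 5.07), Stat3 (12.8 ± 1.21), Nes (8.24 ± 1.72), Cd44 (6.40 ± 0.961), Lcn2 (2.45 ± 1.07) and Osmr (1.51 ± 0.168) to Steap4 (0.755 ± 0.232). Serpina3n and Vim, Nes and Cd44, and Lcn2 and Osmr were neighbours whose means differed by less than their summed SDs, and their order is not settled. In SCI, Gfap reached 2251 FPKM ± 160, Serpina3n 431 ± 35.0 and Vim 413 ± 13.2, the last 2 again within their spread. S100a10 stood at 78.3 ± 2.83, Cd44 at 24.2 ± 2.43, Nes at 22.1 ± 2.50, Stat3 at 21.4 ± 1.50, Osmr at 5.93 ± 0.868, Lcn2 at 5.37 ± 0.975 and Steap4 at 2.50 ± 0.336. Cd44, Nes and Stat3 could not be ordered in SCI, nor could Osmr and Lcn2, whereas Stat3 exceeded Nes and Cd44 in Sham. In SCI+FIPI the order was Gfap (2112 ± 88.3), Serpina3n (349 ± 41.6), Vim (348 ± 16.4), S100a10 (75.0 ± 5.12), Nes (19.3 ± 1.36), Cd44 (19.3 ± 2.29), Stat3 (18.7 ± 0.580), Lcn2 (5.51 ± 2.46), Osmr (4.34 ± 0.277) and Steap4 (2.87 ± 0.774). Serpina3n and Vim, then Nes, Cd44 and Stat3, and then Lcn2 with both of its successors could not be ordered there.

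Gfap, Vim and the other genes were then set against 12 genes that mark astrocytes in the healthy cord, all of them present in every mouse. Their summed level was 9313 to 9489 CPM in Sham, 7105 to 8333 CPM in SCI and 8094 to 8448 CPM in SCI+FIPI. In SCI against Sham 2 of the 12 were called higher, Aldh1l1 (log2 fold change 0.53) and the water channel Aqp4 (0.60). A further 3 were called lower, the glutamate transporter Slc1a2 (-0.82), Aldoc (-0.54) and Fgfr3 (-0.59), and the median of the list was -0.19. Over all genes tested, 24.4% were called higher and 22.5% lower. Within each mouse, the log2 CPM of a reactive gene minus the mean log2 CPM of the 12 identity genes gave a relative level. The relative level was higher in SCI than in Sham by 1.34 for Gfap (SD 0.0137 in SCI and 0.0763 in Sham, n = 3 each), 2.67 for Vim and 0.89 for Stat3. All 10 genes kept the groups apart on this scale, as did 68.2% of all genes tested, in either direction (exact two-sided permutation p = 0.1 for each of the 10, the smallest that 3 mice against 3 allow).

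Genes of the lists made for astrocytes in other models were also examined. Of 6 other genes of the response shared by injury types, 5 were called higher in SCI, including Timp1, an inhibitor of metalloproteinases (log2 fold change 2.78), and the small heat shock gene Hspb1 (1.93), while Cxcl10 stood at 0.65 with mice overlapping. Of the 11 tested A1 genes, a list named for neuroinflammation, 9 were called higher and 1 lower, with Srgn (2.61), Psmb8 (2.05) and H2-T23 (1.53) higher and Amigo2 (-0.55) lower. All 11 A2 genes, a list named for ischemia, were called higher, among them Emp1 at 3.24. The medians were 1.40, 1.53 and 2.03 in that order, beside -0.00 over all genes. Among all genes tested, 24.4% were called higher and 22.5% lower. Many genes of these lists, such as Srgn, Psmb8 and Cd14, are also used by leukocytes.

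**Figure D2:**
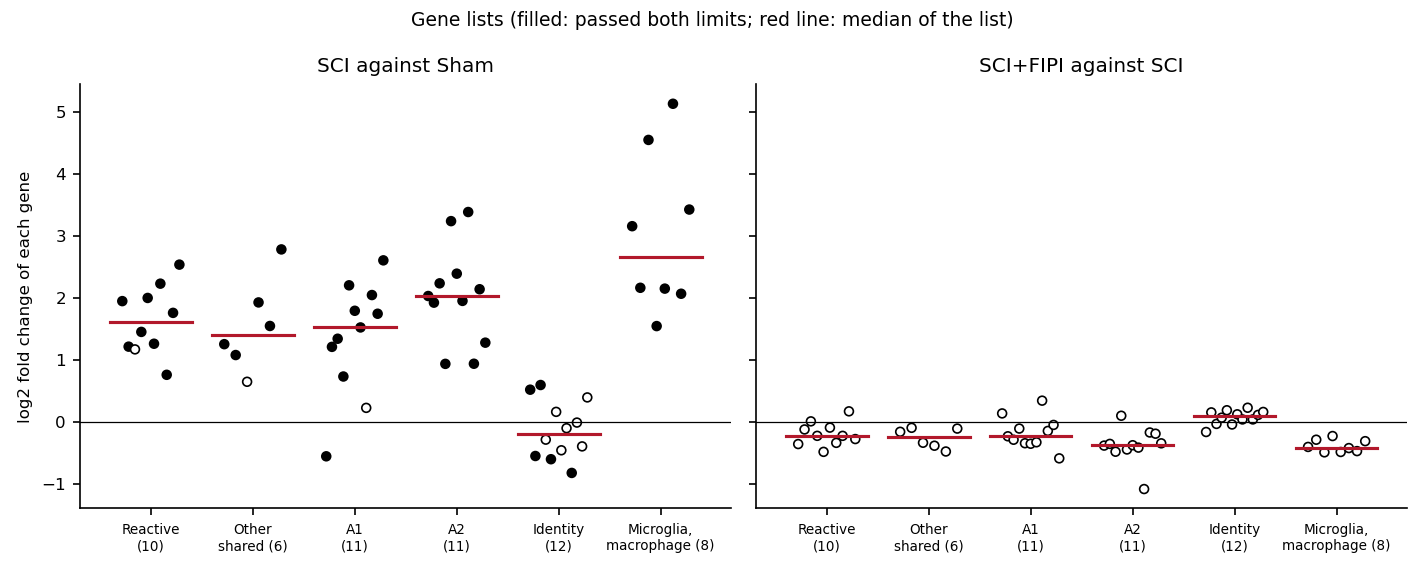
Log2 fold change of each gene of 6 lists for SCI against Sham and SCI+FIPI against SCI, with called genes filled, medians as red lines and the number of genes tested in brackets. For SCI against Sham the medians of the reactive (1.61), shared, A1 and A2 lists sit above 0, that of the astrocyte identity genes near 0 (-0.19) and that of the microglia and macrophage markers highest (2.66), and for SCI+FIPI against SCI no point is filled.

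Markers of other cells moved with the same comparison, in which 24.4% of all genes tested were called higher and 22.5% lower. All 8 microglia and macrophage markers were called higher in SCI, and their summed level was 311 to 454 CPM in Sham and 5709 to 6948 CPM in SCI. All 7 fibroblast and pericyte markers were called higher, with a summed level of 489 to 912 CPM in Sham and 7119 to 9805 CPM in SCI. Of 6 endothelial markers 4 were called higher, with 263 to 288 CPM in Sham and 445 to 480 CPM in SCI. Markers of other cells were lower: all 6 neuron markers were called lower, with a summed level of 4159 to 4592 CPM in Sham and 1268 to 1718 CPM in SCI, and 4 of 6 oligodendrocyte markers, with 31373 to 32915 CPM and 21845 to 24378 CPM. None of these markers was at 0 in any mouse. The part of these cells in the differences of Vim, Cd44, Osmr, Serpina3n and the other genes was not tested.

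To see whether FIPI treatment went with another level of these genes, SCI+FIPI was compared with SCI, and both comparisons share the SCI mice. None of the 10 genes was called by edgeR, and 4 had an unadjusted p under 0.05 (Osmr, Vim, Stat3 and Cd44). Over all genes tested, 2.36% were called higher and 0.695% lower. The adjusted p alone was under 0.05 for 1 of the 10 genes (Osmr) and for 1800 of the 18699 genes tested. The share of all genes at an unadjusted p under 0.05 was not counted. DESeq2 also called none of the 10. Osmr had the smallest p-value, with a mean of 72.8 CPM in SCI and 52.4 CPM in SCI+FIPI. Its level was 0.719-fold that of SCI (log2 fold change -0.48, SE 0.105, edgeR adjusted p = 0.0166), past the limit on p and short of the limit of 0.5 on the fold change. Both limits were close for Osmr. It was called without SCI mouse 1 (-0.59), without SCI+FIPI mouse 1 (-0.53) and with offsets for GC content and length (-0.51). Its edgeR adjusted p was above 0.05 without SCI mouse 2 (-0.42, adjusted p = 0.0667), SCI mouse 3 (-0.40, 0.0609), SCI+FIPI mouse 2 (-0.44, 0.0899) or SCI+FIPI mouse 3 (-0.46, 0.0621).

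**Figure D3:**
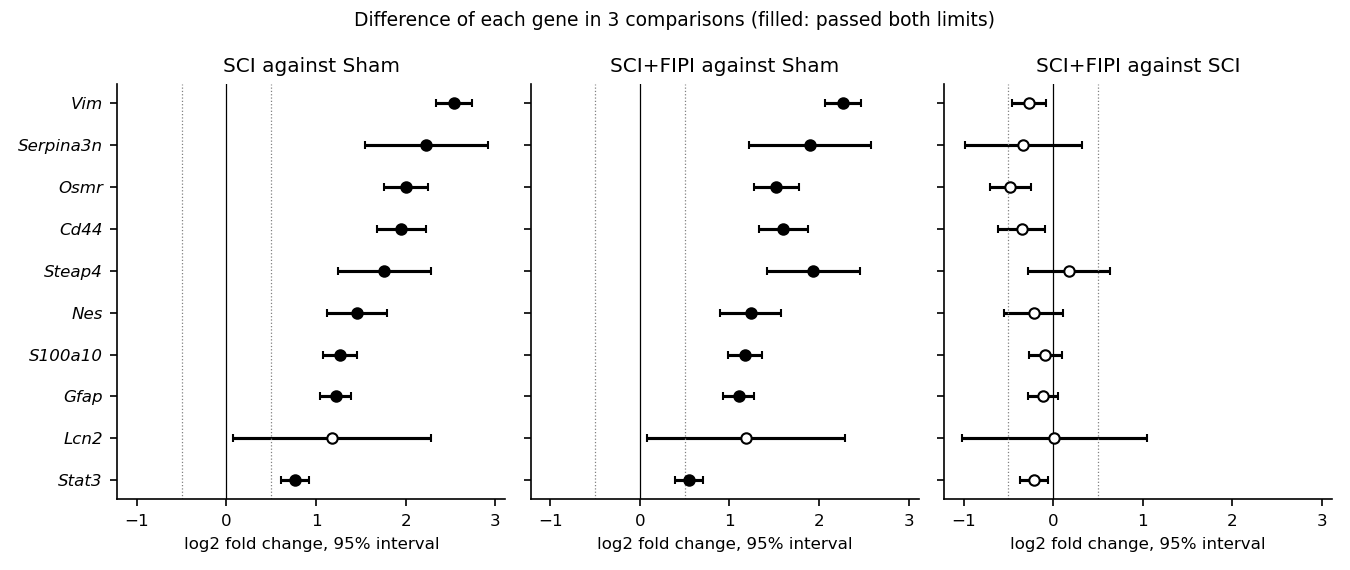
Log2 fold change with its 95% interval for each gene in the 3 comparisons, filled where both limits were passed, with dotted lines at the fold change limits of -0.5 and 0.5. Both comparisons with Sham place 9 filled points to the right of 0.5, while SCI+FIPI against SCI has open points between -0.48 (Osmr) and 0.18 (Steap4).

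The other genes missed the limit on the adjusted p in the main edgeR fit. Vim stood at -0.27 (SE 0.0897, 95% interval -0.46 to -0.08, edgeR adjusted p = 0.0723), Cd44 at -0.35 (SE 0.117, -0.61 to -0.09, adjusted p = 0.0905) and Stat3 at -0.22 (SE 0.0729, -0.37 to -0.06, adjusted p = 0.0737). With DESeq2 the adjusted p was 0.0265 for Vim, 0.0224 for Cd44 and 0.0501 for Stat3, all short of the fold change limit. Without the filter, edgeR gave adjusted p of 0.00233, 9.06e-06 and 0.0148 in that order, also short of the fold change limit. For Vim in SCI against Sham, the unfiltered fit gave an adjusted p of 1.05e-251, beside 5.19e-11 in the main fit. The log2 fold changes were nearly the same there (2.56 and 2.54), so p-values of the unfiltered fit cannot be set beside those of the main fit. With each mouse left out, the edgeR adjusted p lay between 0.0339 and 0.267 for Vim. The range was 0.0415 to 0.292 for Cd44 and 0.0337 to 0.272 for Stat3. The log2 fold change of Serpina3n was -0.33 with an interval of -0.98 to 0.32, although its mice kept apart. For Gfap the difference was -0.12 and its interval, -0.29 to 0.05, left out a fall past the limit of 0.5. For S100a10 (-0.09, interval -0.27 to 0.10) the same held. The interval of Steap4 (0.18, -0.28 to 0.64) left out such a fall and not a rise past 0.5. Those of Nes (-0.22, -0.54 to 0.11) and Lcn2 (0.02, -1.02 to 1.05) reached past the limit on the lower side, and that of Lcn2 on both. Values below 0 were found for 8 genes, with a median of -0.22 over the 10 and -0.00 over all genes. The mice of SCI+FIPI and SCI kept apart for 5 of the 10 genes (Vim, Osmr, Cd44, Serpina3n and Stat3) and for 30.2% of all genes tested.

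Relative to the 12 astrocyte identity genes, Gfap was lower in SCI+FIPI than in SCI by 0.20 in log2 units, and its groups, which overlapped in CPM, kept apart on this scale (relative level 4.53 ± 0.0779 and 4.72 ± 0.0137, SD, n = 3 each, exact two-sided permutation p = 0.1, the smallest possible). On this scale 6 of the 10 genes kept the groups apart, as did 30.6% of all genes tested, and the median difference of the 10 was -0.30. The relative level differed by -0.55 for Osmr, -0.43 for Cd44, -0.42 for Serpina3n, -0.35 for Vim and -0.30 for Stat3, with groups apart. It differed by -0.30 for Nes, -0.18 for Lcn2, -0.17 for S100a10 and 0.07 for Steap4, with groups that overlapped. The identity genes themselves had a median log2 fold change of 0.10. None of the 12 was called by edgeR or DESeq2, and 3 had an unadjusted p under 0.05 by edgeR. Leaving out each identity gene in turn moved the Gfap difference between -0.22 and -0.18. SCI mouse 3, with the lowest Gfap of the SCI mice, also had their lowest mean log2 CPM of the identity genes (8.398). SCI mice 1 and 2 stood at 8.564 and 8.557, and the part of mouse 3 in the separation of Gfap was not tested.

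In SCI+FIPI against SCI none of the genes of the pan-reactive, A1, A2, gp130 ligand, receptor, JAK-STAT, inhibitor, filament, partner and relative lists was called by edgeR, with between 0 and 5 genes of a list at an unadjusted p under 0.05. DESeq2 called 2 of them lower, the A1 gene Srgn, a proteoglycan of leukocyte granules (edgeR log2 fold change -0.58, adjusted p = 0.0936), and Ptpn6, a phosphatase of blood cells. The receptor chain Il6ra stood at -0.44 (edgeR adjusted p = 0.0108), Jak3 at -0.37 (0.0120) and Stat6 at -0.36 (0.0130), each past the limit on p and not on the fold change. That limit on p was also passed by 1 of 11 A1 genes, 1 of 9 inhibitors and 2 of 10 partners tested, and by none in the other lists. Among the 18699 genes tested, 1800 passed it. Socs3 stood at -0.53 (adjusted p = 0.214), Osm at -0.51 (0.132) and Lif at -0.60 (0.112), with SCI+FIPI mice below SCI mice in each. The highest SCI+FIPI and lowest SCI mouse were close for Socs3 (36.4 and 36.7 CPM) and Lif (4.25 and 4.35 CPM). The groups kept apart for 2 of the 6 ligands, 2 of the 9 inhibitors and 30.2% of all genes tested. The 6 gp130 ligands tested had 4 values below 0 and 2 above, with a median of -0.07. The 5 receptor chains had 3 below and 2 above (median -0.03), and the 9 inhibitors 7 below and 2 above (median -0.15). All 9 Janus kinases and STATs tested had values below 0, with a median of -0.14.

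Marker levels of other cells also differed between these groups, for which 2.36% of all genes tested were called higher and 0.695% lower. The 8 microglia and macrophage markers summed to 4134 to 5428 CPM in SCI+FIPI and 5709 to 6948 CPM in SCI, without overlap, and all 8 had log2 fold changes below 0 (median -0.41). None of the 8 was called by edgeR or DESeq2, and 3 had an unadjusted p under 0.05 by edgeR. The 6 endothelial markers summed to 351 to 431 CPM and 445 to 480 CPM, also without overlap, and the pericyte gene Rgs5 was called lower (-0.51). Fibroblast and pericyte markers overlapped at 6470 to 8521 CPM and 7119 to 9805 CPM. The 6 neuron markers summed to 2044 to 2377 CPM in SCI+FIPI and 1268 to 1718 CPM in SCI, with 4 of 6 called higher. Their part in the lower values of Osmr, Vim, Cd44 and Stat3 was not tested.

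SCI+FIPI was also compared with Sham, a comparison that shares mice with both others. Of the 10 genes 9 were called higher, while 21.2% of all genes tested were called higher and 17.0% lower. Vim stood at 2.27 (2.54 in SCI against Sham), Steap4 at 1.94 (1.76), Serpina3n at 1.90 (2.23), Cd44 at 1.60 (1.95), Osmr at 1.53 (2.00), Nes at 1.24 (1.46), S100a10 at 1.18 (1.26), Gfap at 1.10 (1.22) and Stat3 at 0.55 (0.76). Lcn2 stood at 1.19 (edgeR adjusted p = 0.0633) and was not called, with SCI+FIPI mouse 1 inside the Sham range, and without that mouse the value was 1.51 with an adjusted p of 0.00713. Stat3 lay nearest to the fold change limit and came to 0.498, just short of it, without Sham mouse 3.

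Lcn2 was the gene that varied most among the mice of SCI+FIPI, with a coefficient of variation of 44.4% beside 18.3% in SCI. The 8 neutrophil markers, of which Ly6g was at 0 in some mice, summed to 19.7 CPM in SCI+FIPI mouse 1, where Lcn2 was 7.11 CPM, and to 106 and 98.7 CPM in mice 2 and 3, where Lcn2 was 17.1 and 19.0 CPM. The Schwann cell markers had the same order of low and high, at 530, 1211 and 1197 CPM. The sum of 6 bone markers was 27.1, 35.5 and 53.4 CPM in SCI+FIPI mice 1 to 3, and edgeR called 1 of them higher in SCI+FIPI than in SCI. The SCI mouse with the least Lcn2, mouse 3, also had the lowest neutrophil sum of its group, while the highest Lcn2 was in mouse 2 and the highest sum in mouse 1. In Sham, mouse 2 had the highest Lcn2 and the highest neutrophil sum (82.6 CPM), and mouse 3 the lowest of both (28.6 CPM). SCI mice had 42.6 to 55.1 CPM of neutrophil markers, below Sham mouse 2, yet 11.5 to 16.7 CPM of Lcn2, above it. None of the 8 was called by edgeR in any comparison, with 1 at an unadjusted p under 0.05 in SCI against Sham and 1 in SCI+FIPI against SCI, and DESeq2 called Cxcr2 higher in the former and Mpo in the latter. The part of neutrophils or of other tissue in the level of Lcn2 was not tested.

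**Figure D4:**
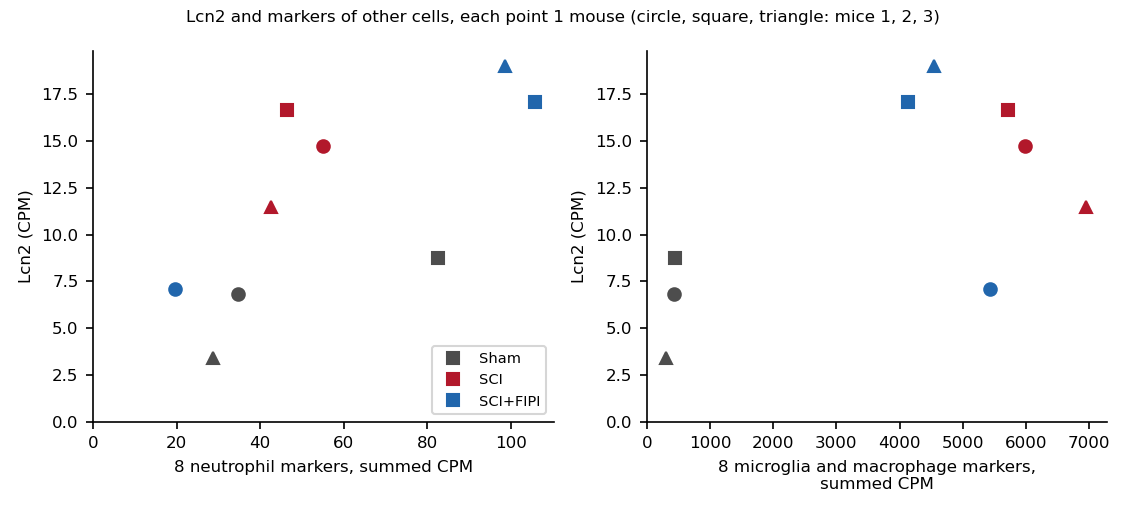
Lcn2 level against the summed level of 8 neutrophil markers and of 8 microglia and macrophage markers, both in CPM on linear axes, with each point 1 mouse. Within each group the mouse with the lowest neutrophil sum also had the lowest Lcn2 (3.43, 11.5 and 7.11 CPM in Sham, SCI and SCI+FIPI). The highest neutrophil sums of SCI (55.1 CPM) and SCI+FIPI (106 CPM) were not in the mice with the highest Lcn2. SCI mice had more Lcn2 than the Sham mouse with a higher neutrophil sum. The mouse with the highest microglia and macrophage sum had the lowest Lcn2 in SCI (6948 CPM) and SCI+FIPI (5428 CPM), and the highest Lcn2 in Sham (454 CPM).

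The same mice were often high or low in their group for several genes. SCI mouse 1 was the lowest of its group for 8 of the 10 genes and SCI mouse 2 the highest for 9. SCI+FIPI mouse 3 was the highest of its group for 8 genes and SCI+FIPI mouse 2 the lowest for 7, while Sham mouse 3 was the lowest for 8. For Gfap and Lcn2, SCI mouse 3 and not mouse 1 had the lowest level.

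Over the 9 mice, Pnpla2, Gmppa, Il3ra and Sparc were among the genes most like Gfap by Pearson correlation of log2 CPM over 11613 genes (r = 0.995 for Sparc). A correlation above 0.9 was shared by 2936 genes, and all 9 points carry the difference between Sham and injured mice. For Lcn2 it was shared by 28 genes, with Nfkbib (r = 0.956), which encodes an inhibitor of NF-kB, at their head, and Ppp1r15a, Eno3, Sspo and Eif3g next.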

How the data were processed

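RNA of spinal cord was sequenced in 9 libraries, 3 per group, and each library was taken as a separate mouse. The methods assign animals at random to the groups and do not state whether tissue was pooled. The authors trimmed reads and deposited raw counts per gene. The submitters' processing notes name R 4.2.3 and GRCm38, and the aligner, counter, annotation and use of strand are not given in the sources used here. Identifiers were matched to GENCODE M21 (52403 of 52550 found).

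Counts were fitted in R 4.3.3 with edgeR 4.0.16 (TMM, filterByExpr by group, robust quasi-likelihood, 1 mean per group, all 9 mice, coefficient of biological variation 9.30%), after the code was tested on simulated data. The limits follow the study's methods, which name no test. CPM used the TMM factors and log2 CPM a prior count of 2. FPKM divided the count by the total count and the exonic length. The fit was repeated with other factors (RLE, upper quartile), without the filter, with DESeq2 1.42.0, with the replicate number as a block, on only the groups compared, with GC and length offsets, at other fold change limits and without each mouse in turn. All 10 genes are named, with genes of lists by size or role. Some genes that this rule would name are not reported here. The genes and lists were chosen with earlier results of these data known. Steap4 had 37 to 281 counts per mouse, Lcn2 82 to 454 and Gfap at least 92966. Intervals are 95%.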

Additional observations from a re-analysis of the deposited data

How the results depend on the processing

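The count of the 10 genes called was 9 for SCI against Sham and 9 for SCI+FIPI against Sham, and stayed between 8 and 10 under the alternatives run. For SCI+FIPI against SCI it was 0, and became 1 (Osmr) with GC and length offsets and with no fold change limit, and 0 to 1 with each mouse left out, while the adjusted p of Osmr lay between 0.000535 and 0.0899. Genes called in all, 8780, 572 and 7128 for SCI against Sham, SCI+FIPI against SCI and SCI+FIPI against Sham, became 5059, 65 and 3376 at a limit of 1, and 1800 and 11060 for the last 2 with no limit. Leaving out mice moved the 572 between 189 (without SCI+FIPI mouse 2) and 1038 (without SCI mouse 1), with 341 without SCI mouse 2 and 240 without SCI mouse 3, and the cause was not tested. Fitted as a replicate block, the mouse numbers gave 9, 0 and 9 of the 10 genes and 8744, 555 and 7115 genes in all. Same-numbered mice deviated from their group means with correlations of -0.073 to 0.11, so the numbers were not taken as pairs. Lcn2 in SCI+FIPI against SCI changed sign, to -0.0035 under the replicate block and between -0.24 and 0.34 with mice left out, as did Steap4, between -0.066 and 0.30. Lcn2 in SCI against Sham was also called when only these groups were fitted (adjusted p = 0.0188), and in SCI+FIPI against Sham by DESeq2 (adjusted p = 0.0303). With 3 mice per group and a spread estimated from all 9 mice, Lcn2, Steap4 and Serpina3n carry wide intervals. The largest coefficient of variation within a group was 44.4% for Lcn2 (SCI+FIPI) and 38.3% for Serpina3n (Sham). Their counts were at least 82 and 2823, and the part of depth was not tested.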
